A study of Mus musculus with 4 samples.

Results

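The cells described here are 4145 lung cells in which *Hhip* was counted together with at least 1 of *Aspn*, *Pappa2* and *Sbspon*, genes reported as markers of fibroblasts along the airways. They were chosen by counts of unique molecular identifiers (UMIs, 1 for each captured RNA molecule): *Hhip* at 1 UMI or more, 1 or more UMIs of *Aspn*, *Pappa2* or *Sbspon*, the collagen gene *Col1a2* at 2 or more, the fibrotic fibroblast gene *Cthrc1* at 1 or fewer, and no UMI of *Ptprc*, *Cdh5* or *Epcam*, which mark leukocytes, endothelium and epithelium. The files held 32121 cells. Of these, 30860 had 200 to 7500 genes and at most 15% mitochondrial UMIs, and 15864 of those had *Col1a2* at 2 or more with none of the 3 excluded genes, here called Col1a2 cells. Because these counts chose the cells, levels of the 6 rule genes are given below as a description, and nothing is tested on them.

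Hhip is a membrane protein that binds Hedgehog ligands and keeps them from their receptor, and its gene is itself switched on by Hedgehog signaling. Asporin is a small leucine-rich proteoglycan of the matrix, Pappa2 is a protease that cleaves insulin-like growth factor binding proteins and so frees the growth factor, and Sbspon is a secreted protein with somatomedin B and thrombospondin domains. Peribronchial fibroblasts lie beside the airway smooth muscle, a position in which Hedgehog ligand reaches them from the epithelium.

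Lungs were taken 14 days after intratracheal bleomycin at 0.8 U/kg, which injures the lung and leads to fibrosis, from 2 wild-type (WT) and 2 *Tubb3-/-* mice, littermates of 8 to 11 weeks. The *Tubb3-/-* mice were homozygous for a *Cre* coding sequence placed at the translation start of *Tubb3*, the gene of the beta-tubulin recognized by the antibody Tuj1, and so carry no intact copy of it. Each lung gave a whole-cell library, from which erythrocytes had been depleted, and a mural cell-enriched library, depleted of CD31+, CD45+, EpCAM+ and TER-119+ cells and sorted for MCAM+ PDGFRα- and MCAM- cells mixed in equal numbers. All mice received bleomycin, so the comparison shows genotype within injured lungs, and with 2 mice a group an exact permutation test cannot go below p = 0.333.

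The 8 libraries held between 41462258 and 95036340 gene UMIs. *Tubb3*, the gene disrupted in these mice, was at 3.24 and 2.37 counts per 1e+06 UMIs (CPM) in the chosen cells of the WT mice and at 0.627 and 0.532 CPM in those of the *Tubb3-/-* mice, in the direction of the labels, and *Cre* was not counted in any of them. *Xist* stood at 24.9 and 21.2 CPM in replicate 1 of each genotype and at 649 and 617 CPM in replicate 2, and *Ddx3y*, a gene of the Y chromosome, stood at 147 and 119 CPM and at 7.41 and 5.85 CPM, so each genotype held 1 mouse of each sex by these genes and the same-numbered mice shared theirs. The labels do not pair the mice, but a term for the replicate number (replicate block) is thereby also a term for sex, and its counts are given beside the results. No cell barcode was shared within a pool of libraries and 59 were shared between the pools, 11 of them in chosen cells.

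WT mice gave 1001 and 716 chosen cells and *Tubb3-/-* mice 1220 and 1208. Most came from the mural cell-enriched libraries, with 887 and 630 cells from WT and 1079 and 1078 from *Tubb3-/-* mice, against 86 to 141 cells in each whole-cell library. They made up 25.73% and 22.65% of the Col1a2 cells of the WT mice and 26.19% and 29.08% of those of the *Tubb3-/-* mice. The means were 24.2% ± 2.18 (SD, n = 2) and 27.6% ± 2.04, and the nearest mice of the genotypes lay less than 1 percentage point apart. In the whole-cell libraries alone the shares were 22.94% and 18.38% against 20.35% and 24.71%, with overlap (log2 0.12, edgeR adjusted p = 0.833), and in the mural cell-enriched libraries alone 26.14% and 23.39% against 27.21% and 29.71%. The difference, 0.19 on the log2 scale (SE 0.25), did not pass the test (edgeR quasi-likelihood, adjusted p = 0.685). Chosen cells were also deeper in the *Tubb3-/-* mice, with median UMIs of 16976 and 16516 in WT and 19301.5 and 18532 in *Tubb3-/-* mice. A further setting thinned cells to 5000 UMIs and left out 1115 and 987 cells of the WT and 993 and 840 of the *Tubb3-/-* mice. The shares then became 13.4% and 10.32% against 14.1% and 15.79% (log2 0.33, edgeR adjusted p = 0.383). Thinning and leaving out cells were not tested apart.

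A rule that asks for 1 UMI admits cells near the limit of detection. Of the 4145 cells, 1180 had exactly 1 *Hhip* UMI, 1047 had 2 to 4 and 1918 had 5 or more. Just outside, 4502 cells met every other condition with *Hhip* at 0 and a median of 12611.5 UMIs, below the 18053 of the chosen cells. A further 2386 cells lacked all of *Aspn*, *Pappa2* and *Sbspon*, and 499 failed only on *Cthrc1*. *Aspn* was the gene that usually completed the rule, counted in 93.29% of the cells, whereas *Pappa2* was counted in 28.01% and *Sbspon* in 20.05%. For comparison, leukocytes, which should lack these genes, had a UMI of *Hhip* in 3.16%, of *Aspn* in 4.38%, of *Pappa2* in 0.74% and of *Sbspon* in 0.29% of 3767 cells, at a shallower median of 7107 UMIs. These leukocytes were taken with *Ptprc* at 2 UMIs or more and *Col1a2* at 0, a choice that itself leaves out cells with much RNA of fibroblasts.

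To ask what kind of cells these were, the 15864 Col1a2 cells were clustered without the 6 rule genes, and the name peribronchial fibroblast was then checked against its markers. Clusters high in these markers held a minority of the cells. A cluster of 618 cells, 560 of them chosen cells (13.51% of all chosen cells), was led by *Pappa2*, *Egfem1*, *Nrxn3*, *Kctd16*, *S100b*, *Cacna2d3* and *Aspn*, and of the 8 peribronchial markers that the rule did not use (*Lgr6*, *Mustn1*, *Fgf18*, *Cdh4*, *P2ry14*, *Wnt5a*, *Tgfbi* and *Pdgfra*) 7 stood above the other Col1a2 cells there, all but *Pdgfra*. It is called peribronchial fibroblast-like, or the Pappa2 cluster. The list was drawn up for ductal and peribronchial cells together and does not tell those apart. A cluster of 389 cells, 364 of them chosen (8.78%), was led by *Sbspon*, *Tnnt2*, *Chrm2*, *Sphkap* and *Tgfbi*, with 8 of 10 smooth muscle markers above the other Col1a2 cells. The same 7 of 8 peribronchial markers stood above those cells in it too, so they do not tell the 2 clusters apart. With genes of muscle among those leading it, it was left unnamed and is called the Sbspon cluster. Another 414 chosen cells (9.99%) were in a cluster of 660 led by *Adh7*, *Dner*, *Lamc3*, *Hmcn2*, *Apod* and *Bmp7*, with 9 of 11 adventitial fibroblast markers above the other Col1a2 cells. The remaining 2807 chosen cells were spread over other clusters, among them 644 in one led by *Chl1*, *Hp*, *Saa3* and *Sfrp1*, 536 in one led by *Nfkb1*, *Mmp3* and *Il6*, 358 in one led by *Scara5*, *Pi16* and *Ly6c1*, and 334 in one led by *Slc7a10* and *Scube2*, and 153 in one of which 89.35% of cells were marked as doublets.

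As a description of the rule genes, cells with few *Hhip* UMIs lay mostly outside the 3 clusters, and the Pappa2 and Sbspon clusters were alike in this count, with medians of 25 and 26 UMIs. Of the cells with 1 *Hhip* UMI, 91.9% lay outside the 3 clusters, whereas of the 1237 cells with 10 or more, 35.7% lay in the Pappa2 cluster, 21.4% in the Sbspon cluster, 8.6% in the Adh7 cluster and 34.3% elsewhere. Among the 425 cells in which *Aspn*, *Pappa2* and *Sbspon* were all counted, 63.8% were in the Pappa2 cluster and 24.7% in the Sbspon cluster. Chosen cells outside the 3 clusters held *Acta2*, smooth muscle actin, at 1906 to 2693 CPM, below the 3307 to 5334 CPM of the Col1a2 cells that were not chosen.

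**Figure D1:**
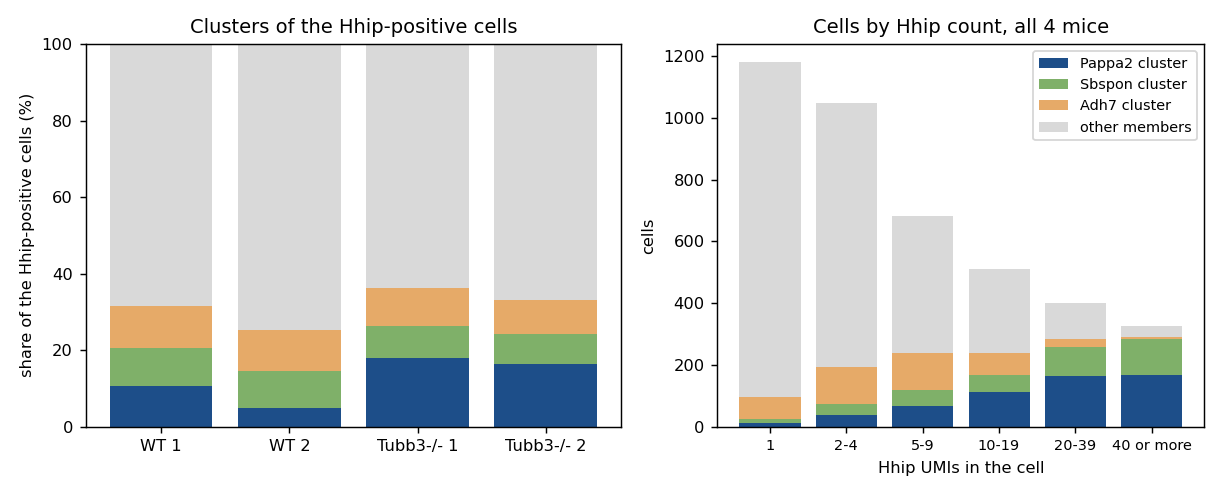
Left, share of the Hhip-positive cells of each mouse (%) in the Pappa2, Sbspon and Adh7 clusters and in all other clusters; right, number of Hhip-positive cells of all 4 mice by the Hhip UMIs counted in the cell, with the same colors. The Pappa2 cluster took 10.69% and 4.89% of the cells of the WT mice and 18.03% and 16.39% of those of the Tubb3-/- mice, and cells with 1 Hhip UMI lay mostly outside the 3 clusters.

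With both kinds of library pooled, peribronchial fibroblast-like cells took a higher share of the chosen cells in each *Tubb3-/-* mouse than in either WT mouse, but not in the whole-cell libraries alone. They numbered 107 and 35 in WT against 220 and 198 in *Tubb3-/-* mice, or 10.69% and 4.89% against 18.03% and 16.39% (means 7.79% ± 4.1 and 17.2% ± 1.16, SD, n = 2). In the whole-cell libraries the shares were 14.91% and 11.63% against 19.15% and 12.31%, with overlap and from 10 to 27 cells a mouse, and in the mural cell-enriched libraries 10.15% and 3.97% against 17.89% and 16.88%. Neither kind was tested alone. The 2 WT mice, pooled, differed from each other by more than the *Tubb3-/-* mice did. The log2 difference of 1.1 (SE 0.37) did not pass the test (edgeR adjusted p = 0.09), and the call depended on the WT mice. It was 1.81 without WT replicate 1 (edgeR adjusted p = 0.00193) and 0.69 without WT replicate 2 (adjusted p = 0.0202), but 1.05 and 1.19 without *Tubb3-/-* replicate 1 or 2 (adjusted p = 0.326 and 0.32) and 1.17 with the replicate block (adjusted p = 0.0774). Where 1 mouse is left in a genotype, it is assumed to vary as the other genotype does. The Sbspon cluster took 9.99% and 9.78% in WT and 8.28% and 7.7% in *Tubb3-/-* mice (log2 -0.31, edgeR adjusted p = 0.09), and the Adh7 cluster 10.89% and 10.61% against 9.92% and 8.94% (log2 -0.19, edgeR adjusted p = 0.184). Median UMIs of the Pappa2 cluster cells were 11686 and 11762 in WT and 16998.5 and 16401.5 in *Tubb3-/-* mice, and the part of this difference in the shares was not tested.

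The rule genes were left out of the clustering, and their levels in the clusters are given as a description. *Hhip* stood at 2615 and 4176 CPM in the Pappa2 cluster of the WT mice and at 1502 and 2218 CPM in that of the *Tubb3-/-* mice. In the Sbspon cluster it stood at 2623 and 2427 CPM and at 1939 and 1865 CPM, so the ranges of the 2 clusters overlapped. The Adh7 cluster held 326 to 443 CPM, the chosen cells elsewhere 227 to 295 CPM, and the Col1a2 cells that were not chosen 69.6 to 104 CPM. *Aspn* was at 2201 to 3329 CPM in the Pappa2 cluster and at 1347 to 2115 CPM in the Sbspon cluster, without overlap. *Pappa2* was at 782 to 1111 CPM in the first and 107 to 165 CPM in the second, and *Sbspon* at 87.2 to 124 CPM and 289 to 386 CPM. Each of these clusters is named for the gene that led it, *Pappa2* or *Sbspon*. The order of those genes between the clusters therefore follows from the naming and is no separate result. The coordinates of these genes (mm10, GENCODE annotation) are chr8:79965851-80058006 on the minus strand for *Hhip*, chr13:49544443-49567565 on the plus strand for *Aspn*, and chr1:158711727-158980490 and chr1:15853862-15892722, both on the minus strand, for *Pappa2* and *Sbspon*.

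Over all chosen cells together, the genes highest against the Col1a2 cells not chosen were *Egfem1* (mean log2 ratio 2.79 ± 0.6, SD over 4 mice), *Cacna2d3* (2.45), *Cdh4* (2.16), *Tgfbi* (2.14), *Kctd16* (2.09), *Pde10a* (1.83) and *Rbp4* (1.62), and among the lowest were *Spp1* (-2.23) and *Ctnna3* (-1.39). The rule leaves cells with *Cthrc1* at 2 UMIs or more among those not chosen. In a cluster of 1243 cells led by *Thbs4*, *Cthrc1* and *Spp1*, 55 cells were chosen, which bears on the *Spp1* ratios here and below. *Egfem1*, *Cacna2d3* and *Kctd16* also led the Pappa2 cluster, and the Hedgehog receptor gene *Ptch1* was among the higher genes at 1.03 ± 0.05. The level over all chosen cells need not be that of most of them. *Egfem1* stood at 35.8 to 95.4 CPM over all chosen cells. It was at 338.6 to 555.1 CPM in the Pappa2 cluster and 194.1 to 220.8 CPM in the Sbspon cluster.

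Peribronchial markers that the rule did not use were high in both clusters, and several were highest in the Pappa2 cluster. *Fgf18*, a fibroblast growth factor, stood at 179, 188, 184 and 224 CPM in the Pappa2 cluster of WT 1, WT 2, *Tubb3-/-* 1 and *Tubb3-/-* 2, at 50.2 to 64.4 CPM in the Sbspon cluster and at 4.96 to 7.98 CPM in chosen cells outside the 3 clusters. *Wnt5a*, a non-canonical Wnt ligand, followed the same order, at 422 to 638 CPM, 146 to 261 CPM and 53.0 to 84.4 CPM. *Lgr6*, a receptor for R-spondins, was at 202 to 246 CPM in the Pappa2 cluster and at 272 to 354 CPM in the Sbspon cluster, but at 1.44 to 6.45 CPM in the Adh7 cluster. In each case the 4 mice of one population did not overlap those of the next. *Mustn1*, a small nuclear protein of muscle and skeletal tissue, was at 952 to 1190 CPM in the Pappa2 cluster and 1089 to 1430 CPM in the Sbspon cluster, and those ranges overlapped, as did those of *Tgfbi*, a secreted matrix protein, at 319 to 470 CPM and 383 to 444 CPM. *Pdgfra*, the receptor usual in lung fibroblasts, was low in both, at 53.2 to 64.3 CPM and 14.3 to 26.2 CPM, against 459 to 597 CPM in the Adh7 cluster.

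**Figure D2:**
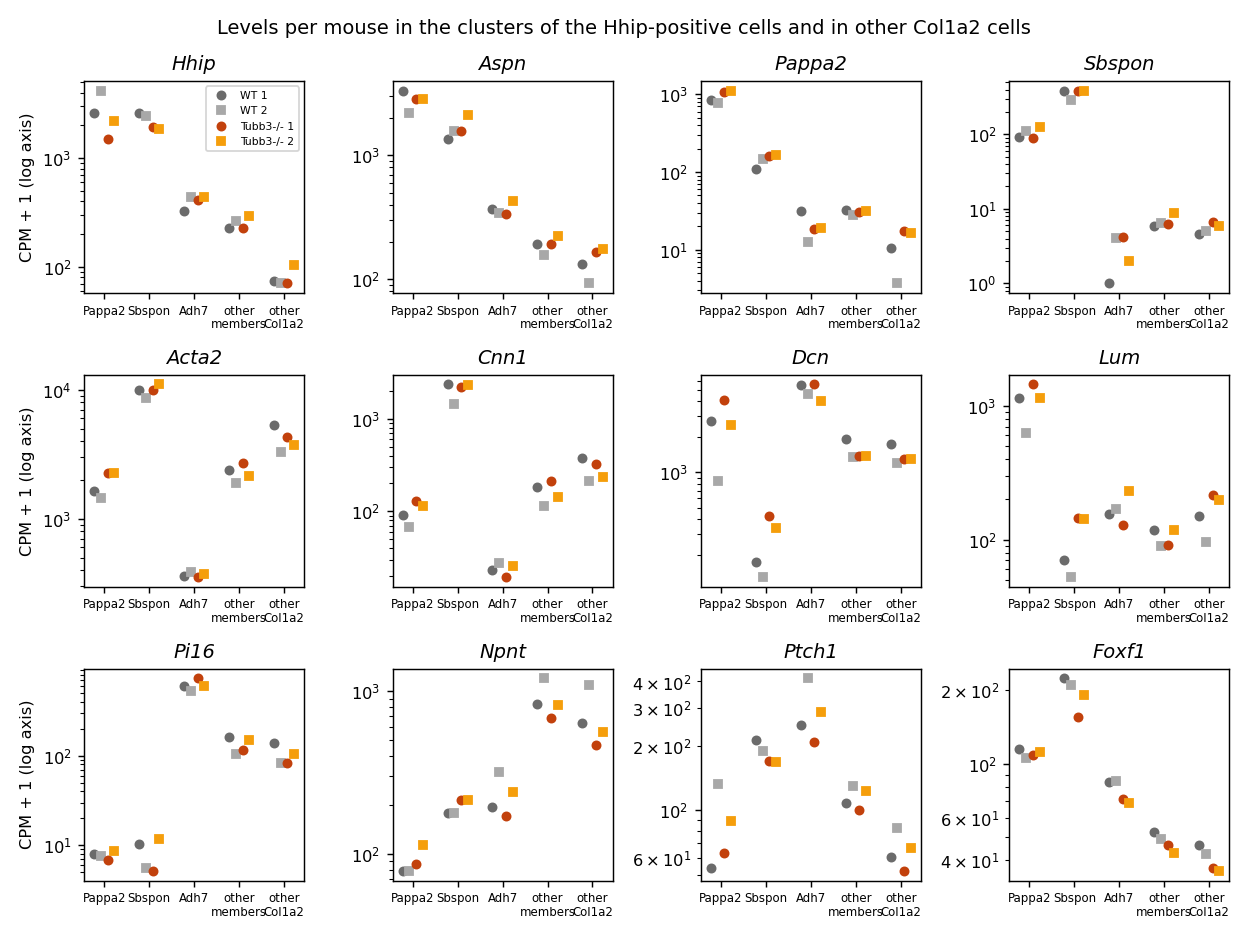
Level of 12 genes (CPM + 1, log axis) in the Pappa2, Sbspon and Adh7 clusters of the Hhip-positive cells, in the other Hhip-positive cells and in the Col1a2 cells that were not chosen, 1 point per mouse and genotype by color. Acta2 was highest in the Sbspon cluster, at 8609 to 10976 CPM, and Pi16 in the Adh7 cluster, at 529 to 728 CPM.

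Among the 10 genes highest in the peribronchial fibroblast-like cells over the Col1a2 cells not chosen, rule genes left out, were *Egfem1* (mean log2 ratio 5.55 ± 0.29, SD over 4 mice), *Nrxn3* (5.38), *Cacna2d3* (5.0), *Cyp2e1* (4.88), *Wif1* (4.74), *Kctd16* (4.73) and *S100b* (4.4). These include a neurexin and a calcium channel subunit, both better known from neurons, and the Wnt inhibitor *Wif1*, at 121 to 284 CPM. Among the 10 lowest against those cells were *Limch1* (-3.87), *Actc1* (-3.59), *Spp1* (-3.29), *Fn1* (-2.96) and *C3* (-2.95). Since the cells were clustered on their expression, these ratios describe the cluster and were not tested. The BMP ligand *Bmp5* was at 451 to 623 CPM in the Pappa2 cluster.

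Cells of the Sbspon cluster carried the contractile program of smooth muscle. *Acta2* stood there at 9941 and 8609 CPM in WT and 9933 and 10976 CPM in *Tubb3-/-* mice, against 1447 to 2269 CPM in the Pappa2 cluster and 352 to 384 CPM in the Adh7 cluster. The smooth muscle markers *Cnn1*, *Myh11* and *Des* were at 1445 to 2356 CPM, 1868 to 2290 CPM and 2294 to 3317 CPM. Of the genes leading this cluster over the Col1a2 cells not chosen, *Chrm2* (log2 ratio 4.75) and *Chrm3* (4.29) encode the muscarinic acetylcholine receptors through which nerves contract airway muscle, *Agt* (4.94) encodes angiotensinogen, *Kcnma1* (3.69) a calcium-activated potassium channel, and *Tnnt2* (4.44) and *Trdn* (4.3) proteins of striated muscle. *Ogn*, a small leucine-rich proteoglycan, was at 1859 to 2329 CPM. Doublets were marked for 6.94% of the cells of this cluster.

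The Adh7 cluster was of another kind. *Adh7* (log2 ratio 4.74 over Col1a2 cells not chosen), *Dner* (4.95), *Bmp7* (4.33), *Hmcn2* (4.13) and *Lamc3* (3.99) were highest, and *Myh11* (-3.83), *Tagln* (-3.53) and *Acta2* (-3.48) lowest. *Pi16*, a marker of adventitial fibroblasts, was at 529 to 728 CPM. *Bmp7* was at 71.3 to 86.6 CPM here and was not counted in the Sbspon cluster.

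Targets of Hedgehog signaling that the rule did not use differed in level between the clusters. *Ptch1*, the Hedgehog receptor and a direct target, was highest in the Adh7 cluster, at 250 and 413 CPM in WT and 208 and 287 CPM in *Tubb3-/-* mice, although the lowest of these mice overlapped the Sbspon cluster. It was at 167 to 213 CPM in the Sbspon cluster and at 52.4 to 131 CPM in the Pappa2 cluster. *Gli1*, the transcription factor that is also a target, was at 36.0 to 47.6 CPM, 20.2 to 42.2 CPM and 11.6 to 16.3 CPM in the same 3 clusters. The Pappa2 cluster therefore stood below the other 2 for both targets in all 4 mice, and its *Gli1* lay below that of chosen cells outside the clusters too, at 17.2 to 19.8 CPM, and overlapped that of Col1a2 cells not chosen, at 12.1 to 14.6 CPM. *Foxf1*, a transcription factor under Hedgehog control in lung mesenchyme, was highest in the Sbspon cluster at 155 to 223 CPM, then in the Pappa2 cluster at 104 to 114 CPM, and at 41.7 to 51.3 CPM in chosen cells outside the clusters.

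Genes of the insulin-like growth factor system, of which *Pappa2* is a part, were expressed in the same cells. *Igfbp5*, a binding protein and known Pappa2 substrate, was at 1945 and 1855 CPM in the Pappa2 cluster of WT mice and at 2205 and 2268 CPM in that of *Tubb3-/-* mice. *Igf1*, the growth factor, was at 789 and 864 CPM and at 1330 and 1414 CPM. The related protease *Pappa* was at 118 and 199 CPM and at 87.9 and 126 CPM, and the inhibitor *Stc1* at 36.1 and 97.5 CPM and at 30.1 and 34.1 CPM. None of these 4 passed the test between genotypes (edgeR adjusted p = 0.729, 0.119, 0.394 and 0.315).

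Genotype was first compared over all chosen cells, summed for each mouse. *Bpgm*, bisphosphoglycerate mutase of red cell glycolysis, stood at 27.1 and 30 CPM in WT and 68.1 and 65.9 CPM in *Tubb3-/-* mice and rose by 1.22 on the log2 scale (SE 0.08, edgeR adjusted p = 0.0484). *Myo1f*, a myosin of leukocytes, stood at 22.3 and 24.4 CPM against 7.45 and 7.78 CPM and fell by 1.62 (SE 0.1, adjusted p = 0.0484). The genotypes did not overlap for either, and without the replicate block no other gene was called of 15461 tested (0.0129%, or 0.00647% in each direction). An unadjusted p under 0.05 was found for 2589, DESeq2 called 414 and the fit with the replicate block 1389. Of 15 alternatives counted for each gene, *Bpgm* was called in 6 and *Myo1f* in 7. Here and below, the replicate block is not among the alternatives counted for a gene. Nearest to the threshold and not called were *Chl1*, a neural adhesion molecule, at 21.9 and 18.3 CPM against 64.9 and 62.7 CPM (adjusted p = 0.0759), *Rasgef1b* at 91.0 and 104 CPM against 52.0 and 51.8 CPM (adjusted p = 0.0759), *Akap12*, a kinase anchoring protein, at 258 and 246 CPM against 120 and 135 CPM (adjusted p = 0.0821), and *Chn1* (log2 0.88, adjusted p = 0.0821). Haemoglobin and *Alas2* summed to 12.8 and 925 CPM in WT and 268 and 13 CPM in *Tubb3-/-* mice, and 12 leukocyte markers, 1 of them at 0, to 131, 131, 135 and 130 CPM. *Bpgm* was also a leading gene of the cluster led by *Thbs4*, *Cthrc1* and *Spp1* (log2 2.92 over other Col1a2 cells). Col1a2 cells with *Cthrc1* at 2 UMIs or more, none of them chosen, took a higher share in *Tubb3-/-* mice (log2 1.34, edgeR adjusted p = 0.00147). The part of either in the rise of *Bpgm* was not tested. Chosen cells outside the 3 clusters gave the same pair, *Bpgm* at 1.27 and *Myo1f* at -1.74 on the log2 scale (adjusted p = 0.0459 for both), 2 of 14737 genes (0.0136%, 0.00679% in each direction, with 2079 or 14.1% at an unadjusted p under 0.05), against 829 with the replicate block. Without WT replicate 1 the count over all chosen cells was 0 and without WT replicate 2 it was 269. Without *Tubb3-/-* replicate 1 it was 0 and without *Tubb3-/-* replicate 2 it was 10, so it rested on single mice.

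No gene of the fibrotic matrix list passed the test over all chosen cells, but its members lay on one side. All 22 had a higher estimate in *Tubb3-/-* mice, 14 of them with an unadjusted p under 0.05, and the median was 0.5 on the log2 scale against 0.01 over all genes tested, of which 16.7% had such a p (1059 higher and 1529 lower). *Postn*, the matricellular protein periostin, stood at 133 and 99.6 CPM in WT and 288 and 254 CPM in *Tubb3-/-* mice (edgeR adjusted p = 0.0824), and *Ltbp2*, a microfibril protein, at 184 and 170 against 311 and 347 CPM (adjusted p = 0.0821). *Spp1*, osteopontin, stood at 113 and 99.3 against 498 and 251 CPM (adjusted p = 0.109). Other lists had medians in the opposite direction: the 10 alveolar fibroblast markers at -0.52 with 7 of 10 at an unadjusted p under 0.05, and 18 immediate early and heat shock genes at -0.4 with 13 of 18, none of them called. The 15 Hedgehog genes tested had a median of 0.0, with 1 gene at an unadjusted p under 0.05 in each direction. The 8 peribronchial markers had a median of 0.5, as the matrix list did, with 4 higher and 1 lower at an unadjusted p under 0.05, the 10 pericyte markers one of 0.31 with 4 higher, and the 6 mesothelial markers one of -0.51 with 4 lower. The Pappa2 cluster, which held a mean of 7.79% of these cells in WT and 17.2% in *Tubb3-/-* mice, moved with the same mice, and the part of this makeup, or of one list in another, was not tested.

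Genotype was next compared within the peribronchial fibroblast-like cells. Of 10762 genes tested, 66 (0.613%) passed, 5 with a rise (0.0465%) and 61 with a fall (0.567%) in *Tubb3-/-* mice, and 1249 (11.6%) had an unadjusted p under 0.05. With the replicate block 542 were called. Lower genes included *Il6*, *Cxcl10* and *Nfkb1*, and the higher genes included *Postn* and the growth factor *Pgf*. The WT sums rested on 107 and 35 cells. Without WT replicate 1 the count was 474, without WT replicate 2 it was 435, without *Tubb3-/-* replicate 2 it was 115 and without *Tubb3-/-* replicate 1 it was 73. Without the 3 cells of this cluster marked as doublets 21 genes were called. Leaving out as many other cells was not tried, so the part of doublets in this was not tested.

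*Postn* (chr3:54361109-54391037, plus strand) stood at 274 and 153 CPM in the Pappa2 cluster of WT mice and at 540 and 566 CPM in that of *Tubb3-/-* mice and rose by 1.27 on the log2 scale (SE 0.24, edgeR adjusted p = 0.0468). *Pgf*, placental growth factor, stood at 66.6 and 33.2 CPM against 143 and 128 CPM and rose by 1.23 (SE 0.24, adjusted p = 0.0475). *Plac8* stood at 116 and 86.4 CPM against 250 and 231 CPM and rose by 1.15 (SE 0.19, adjusted p = 0.0264). WT and *Tubb3-/-* mice did not overlap for any of them. *Bpgm* rose by 1.62, from 24.1 and 28.8 CPM to 93.3 and 68.2 CPM (adjusted p = 0.0261). *Irf8*, a transcription factor of leukocytes that lies 2.68 Mb from *Tubb3* on chromosome 8, was at 5.67 and 4.43 CPM against 23.7 and 27.7 CPM (log2 2.19, adjusted p = 0.0275). Leukocyte markers summed to 133 and 206 CPM in the WT cells and to 118 and 118 CPM in the *Tubb3-/-* cells. Red cell genes summed to 27.6, 6693, 17.1 and 12.5 CPM, the second of these because 1 cell of WT replicate 2 held 3005 of 3015 haemoglobin UMIs. The part of either sum in the rise of *Irf8* or *Bpgm* was not tested.

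Of the genes with a fall, *Il6*, *Cxcl10* and *Irf1* belong to the inflammatory and interferon lists. *Il6*, the cytokine, stood at 257 and 148 CPM in WT and at 92.3 and 88.4 CPM in *Tubb3-/-* cells of the cluster and fell by 1.28 on the log2 scale (SE 0.23, edgeR adjusted p = 0.0383). *Cxcl10*, an interferon-induced chemokine, stood at 282 and 368 CPM against 153 and 96.3 CPM and fell by 1.38 (SE 0.23, adjusted p = 0.0264). *Tnfsf9*, the ligand of 4-1BB, a costimulatory receptor of T cells, stood at 55.3 and 97.5 CPM against 14.5 and 10.7 CPM and fell by 2.48 (SE 0.28, adjusted p = 0.0129). Each genotype's 2 mice lay apart from the other's for all 3. *Icam1*, an adhesion molecule for leukocytes, stood at 247 and 197 CPM against 95.1 and 100 CPM and fell by 1.25, and it was called in all 10 alternative analyses.

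Of the other genes with a fall given here, all but *Irf1*, which is on the interferon list, were picked after their values were seen and are no list. *Nfkb1*, the NF-kappaB subunit, stood at 848 and 734 CPM in WT and 401 and 320 CPM in *Tubb3-/-* cells and fell by 1.17 on the log2 scale (SE 0.2, edgeR adjusted p = 0.0275). *Irf1*, an interferon response factor, stood at 194 and 184 CPM against 81.0 and 69.5 CPM, fell by 1.37 (adjusted p = 0.0129) and was called in all 10 alternatives. *Tnfaip3*, which restrains NF-kappaB, stood at 155 and 182 CPM against 98.4 and 77.1 CPM and fell by 0.95 (adjusted p = 0.0465). None of these genes overlapped between genotypes, which was seen before *Nfkb1* and *Tnfaip3* were picked. *Ripk1*, a kinase of tumor necrosis factor receptor signaling, fell by 1.11, *Jak1*, a kinase of cytokine receptors, by 0.97, and *Osmr*, the oncostatin M receptor, by 0.88 (adjusted p = 0.0244, 0.0264 and 0.0303). Of the 66 genes, *Irf1* and *Icam1* were the 2 called in all 10 alternatives, which leave out the replicate block.

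Over all genes tested in this cluster 0.613% were called and 11.6% had an unadjusted p under 0.05, and the lists are read against these shares. Of 23 interferon response genes tested, 2 were called, both lower (*Irf1* and *Cxcl10*), 4 had an unadjusted p under 0.05 and were lower and 1 was higher, and the list's median was -0.09 on the log2 scale beside 0.0 over all genes tested. Of 14 inflammatory fibroblast genes, 1 was called (*Il6*), and the median was 0.0, so the medians of both lists lay near that of all genes. Stress genes, which dissociation can raise, had a median of -0.31 with 7 of 18 lower at an unadjusted p under 0.05 and none called, and they summed to 17108 and 20820 CPM in WT and 14870 and 15889 CPM in *Tubb3-/-* cells. The part of that difference in the lower genes was not tested. Of 22 fibrotic matrix genes, *Postn* was called, 7 were higher at an unadjusted p under 0.05 and none lower, and the median was 0.33.

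Also called, with a fall, were *Igfbp3* and *Igfbp6*, binding proteins of insulin-like growth factor. *Igfbp3* (chr11:7206086-7213923, minus strand), which carries the growth factor in plasma and is cleaved by Pappa2, stood at 212 and 346 CPM in WT and at 90.5 and 102 CPM in *Tubb3-/-* cells of the Pappa2 cluster and fell by 1.52 on the log2 scale (SE 0.2, edgeR adjusted p = 0.0136). *Igfbp6* stood at 107 and 97.5 CPM against 54.5 and 53.0 CPM and fell by 0.99 (SE 0.17, adjusted p = 0.0275). The genotypes did not overlap for either. Of the 10 alternatives, *Igfbp3* was called in 9, with log2 differences from -1.81 to -0.55, and *Igfbp6* in 6, from -1.06 to -0.82. These were the 2 called of 14 genes of this list, whose median was -0.24. *Bambi*, a decoy receptor for BMP and TGF-beta, stood at 75.8 and 57.6 CPM against 29.8 and 34.7 CPM and fell by 1.16 (adjusted p = 0.0321), the only one called of 19 BMP genes, which had a median of -0.24. It was called in 5 of 10 alternatives. *Chrm3*, a muscarinic receptor, fell by 3.3, from 15.6 and 31.0 CPM to 2.8 and 1.22 CPM (adjusted p = 0.0257). Of genes averaging 20 CPM or more, the others among the 10 largest falls belonged to none of the lists: *Nup210l* (-1.82), *Hdx* (-1.68), *Lsmem1* (-1.68), *Thsd7b* (-1.66), *Dcun1d3* (-1.64), *Ints6* (-1.53) and *Hs6st3* (-1.49). Among them *Hdx*, a homeobox gene, stood at 76.5 and 102 CPM against 24.0 and 31.1 CPM, and *Ints6*, of the Integrator complex, at 109 and 95.3 CPM against 41.0 and 32.9 CPM.

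What did not pass the test belongs to the picture of this cluster. None of the 8 peribronchial markers that the rule did not use was called, and their median was 0.01. *Cdh4*, a cadherin, came nearest, at 373 and 621 CPM in WT and 195 and 273 CPM in *Tubb3-/-* cells (log2 -1.09, edgeR adjusted p = 0.0599). *Lgr6*, *Fgf18*, *P2ry14* and *Wnt5a* had log2 differences of -0.16, 0.12, 0.07 and 0.0, with standard errors of 0.16 to 0.22. Of 14 Hedgehog genes none was called and the median was -0.08: *Ptch1* differed by -0.12 (SE 0.3) and *Gli1* by -0.18 (SE 0.36). *Gas1*, a Hedgehog co-receptor, stood at 68.7 and 57.6 CPM against 32.1 and 50.6 CPM (adjusted p = 0.237).

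**Figure D3:**
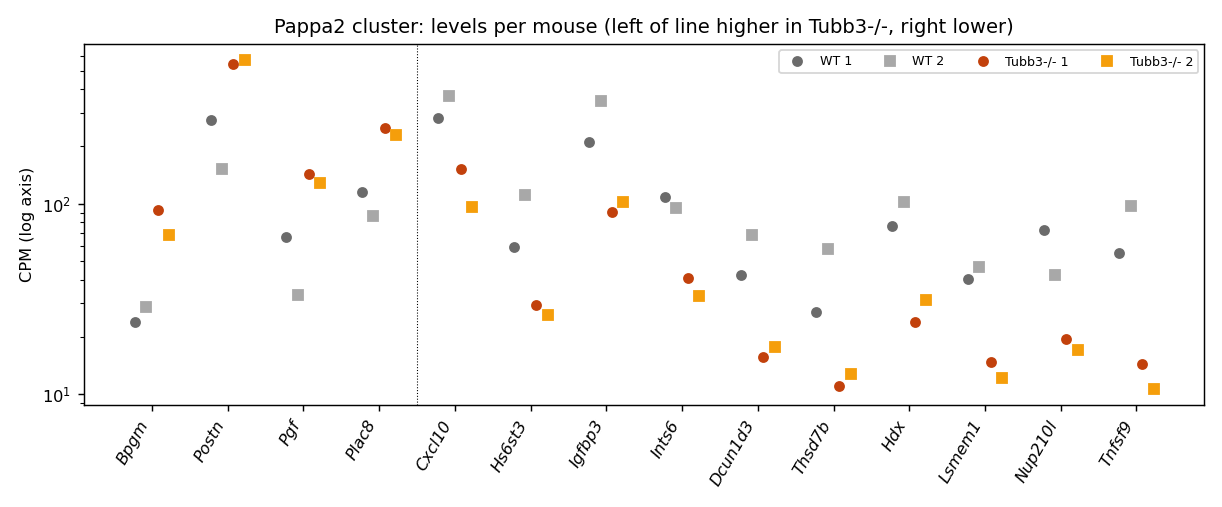
Level (CPM, log axis) per mouse in the Pappa2 cluster of called genes averaging 20 CPM or more, those higher in Tubb3-/- mice to the left of the line and those lower to the right. The genes were chosen so that the 2 WT and the 2 Tubb3-/- points lie apart. Tnfsf9, for example, stood at 55.3 and 97.5 CPM against 14.5 and 10.7 CPM.

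The promoters of *Il6* and *Cxcl10*, genes on which NF-kappaB is known to act, are shown because they were the 2 lower genes found with the motif searched for. The RefSeq promoters of GRCm38.p6, from 250 bases before to 50 bases after the start of the gene, were searched for the letters GGGANNTTCC on both strands, a motif of the NF-kappaB type. The motif is in capitals.
Il6 promoter, chr5:30012864-30013163, plus strand: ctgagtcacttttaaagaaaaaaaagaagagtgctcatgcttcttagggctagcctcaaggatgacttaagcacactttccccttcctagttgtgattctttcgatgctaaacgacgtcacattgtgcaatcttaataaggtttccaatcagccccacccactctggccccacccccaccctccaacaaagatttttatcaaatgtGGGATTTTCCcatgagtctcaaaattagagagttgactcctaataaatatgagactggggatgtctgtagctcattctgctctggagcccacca
Cxcl10 promoter, chr5:92348840-92349139, minus strand: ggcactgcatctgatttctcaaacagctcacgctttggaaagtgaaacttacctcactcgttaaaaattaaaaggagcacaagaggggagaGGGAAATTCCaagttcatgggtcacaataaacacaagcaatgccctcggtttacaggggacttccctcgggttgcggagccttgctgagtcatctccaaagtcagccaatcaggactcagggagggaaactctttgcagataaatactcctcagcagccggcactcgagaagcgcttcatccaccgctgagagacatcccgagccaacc
Counted from the start of the gene, the match begins at -44 in *Il6* (GGGATTTTCC) and at -159 in *Cxcl10* (GGGAAATTCC). Of the 61 lower genes 49 were matched to a promoter, and these 2 held the motif (4.08%), as did 1.63% of the 8507 matched promoters of genes tested in this cluster and 1.63% of all 27025. *Nfkb1*, *Icam1*, *Tnfaip3* and *Irf1*, also lower, were not among the genes with the motif. A match describes the letters in this window, and binding was not measured.

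In the Sbspon cluster, high in smooth muscle genes, *Postn* and *Col1a1* were among the higher genes and *Chrm2* among the lower. Of 9769 genes tested, 23 (0.235%) passed, 12 with a rise (0.123%) and 11 with a fall (0.113%) in *Tubb3-/-* mice, and 913 (9.35%) had an unadjusted p under 0.05. With the replicate block 30 were called. Without 1 mouse at a time the count was 164 or 244 (WT replicates 1 and 2) and 160 or 60 (*Tubb3-/-* replicates 1 and 2), and 7 of the 23 genes were called in all 10 alternatives.

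*Postn* stood at 362 and 267 CPM in WT and 964 and 938 CPM in *Tubb3-/-* cells of the Sbspon cluster and rose by 1.55 on the log2 scale (SE 0.16, edgeR adjusted p = 0.00181). *Col1a1*, the main chain of type I collagen, stood at 663 and 667 CPM against 1211 and 1172 CPM and rose by 0.81 (SE 0.12, adjusted p = 0.0121). *Col4a1*, of the basement membrane, stood at 476 and 444 CPM against 822 and 786 CPM and rose by 0.77 (SE 0.13, adjusted p = 0.0251). In all 3 the *Tubb3-/-* mice lay above the WT mice. *Sparc* and *Ltbp2*, which bind collagen and microfibrils, rose by 0.72 and 1.04 (adjusted p = 0.0143 and 0.044), and the proteoglycans *Dcn* and *Lum* by 1.29 and 1.18 (adjusted p = 0.0121 and 0.0143). *Dcn* stood at 174 and 128 CPM against 425 and 338 CPM, again without overlap. In this cluster 4 of 22 fibrotic matrix genes were called, 17 were higher at an unadjusted p under 0.05 and none lower, and the median was 0.61 beside 0.01 over all genes tested. Of 7 small leucine-rich proteoglycans tested 2 were called, with a median of 0.44. The 11 adventitial fibroblast markers, of which *Dcn* is one, summed to 396 and 366 CPM in WT and 681 and 647 CPM in *Tubb3-/-* cells of this cluster, and median UMIs per cell were 10834.5 and 11493 against 14812 and 15539. The part of either in the matrix genes was not tested.

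Other genes with a rise were *Igf1*, *Igfbp2* and *Fst*. *Igf1* stood at 473 and 404 CPM in WT and 780 and 794 CPM in *Tubb3-/-* cells of the Sbspon cluster and rose by 0.81 on the log2 scale (SE 0.14, edgeR adjusted p = 0.0253). *Igfbp2*, a binding protein, stood at 18.5 and 3.42 CPM against 66.2 and 70.0 CPM and rose by 2.46 (SE 0.37, adjusted p = 0.0121). Its WT values rested on 22 and 3 UMIs, and its log2 difference ranged from 1.74 to 4.29 over the alternatives. *Fst*, follistatin, an activin antagonist, stood at 17.7 and 11.4 CPM against 71.0 and 51.7 CPM and rose by 2.0 (SE 0.29, adjusted p = 0.0121). The genotypes lay apart for all 3. *Igfbp2* and *Fst* were also leading genes of the cluster led by *Thbs4*, *Cthrc1* and *Spp1* (log2 3.24 and 3.18 over other Col1a2 cells). *Alkal1*, a ligand of the receptor kinases ALK and LTK, rose by 1.65 and *Anxa1*, annexin A1, by 0.87 (adjusted p = 0.017 and 0.0285). The rise of *Igf1* and *Igfbp2* did not extend to their list, in which 7 of 15 genes were lower at an unadjusted p under 0.05 and the median was -0.3.

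Among the genes with a fall was *Chrm2*, a muscarinic receptor. *Chrm2* (chr6:36388084-36528414, plus strand) stood at 575 and 486 CPM in WT and 240 and 283 CPM in *Tubb3-/-* cells of the Sbspon cluster and fell by 1.06 on the log2 scale (SE 0.15, edgeR adjusted p = 0.0121), and it was called in all 10 alternatives. The overlapping gene *9330158H04Rik* (chr6:36209620-36390191, minus strand) fell by 1.48. *Bdkrb2*, the bradykinin B2 receptor, stood at 32.0 and 35.4 CPM against 2.98 and 5.68 CPM and fell by 2.97 (SE 0.38, adjusted p = 0.011). *Ptgs2*, the inducible cyclooxygenase, stood at 135 and 82.2 CPM against 43.5 and 26.5 CPM and fell by 1.68 (SE 0.27, adjusted p = 0.0198). For none of these did the genotypes overlap. Stress and immediate early genes had a median of -0.24 in this cluster, with 5 of 18 lower at an unadjusted p under 0.05 and none called, and summed to 21522 and 21361 CPM in WT and 19890 and 15870 CPM in *Tubb3-/-* cells, and their part in the falls was not tested. *Chrm3* stood at 158 and 160 CPM against 76.9 and 103 CPM and was not called (adjusted p = 0.0516). The contractile genes themselves were not called in either direction: 18 were tested, their median was 0.15, and *Acta2* was at 9941 and 8609 CPM against 9933 and 10976 CPM, with overlap. *Chchd10*, a mitochondrial protein, and *Phlda1* fell by 1.29 and 1.22 (adjusted p = 0.0121 for both), and *Rbp4*, the retinol carrier, *Sertad1*, *Tcap*, *Tcf7l2* and *Gstm1* were the remaining lower genes, with falls from 1.54 to 0.76.

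**Figure D4:**
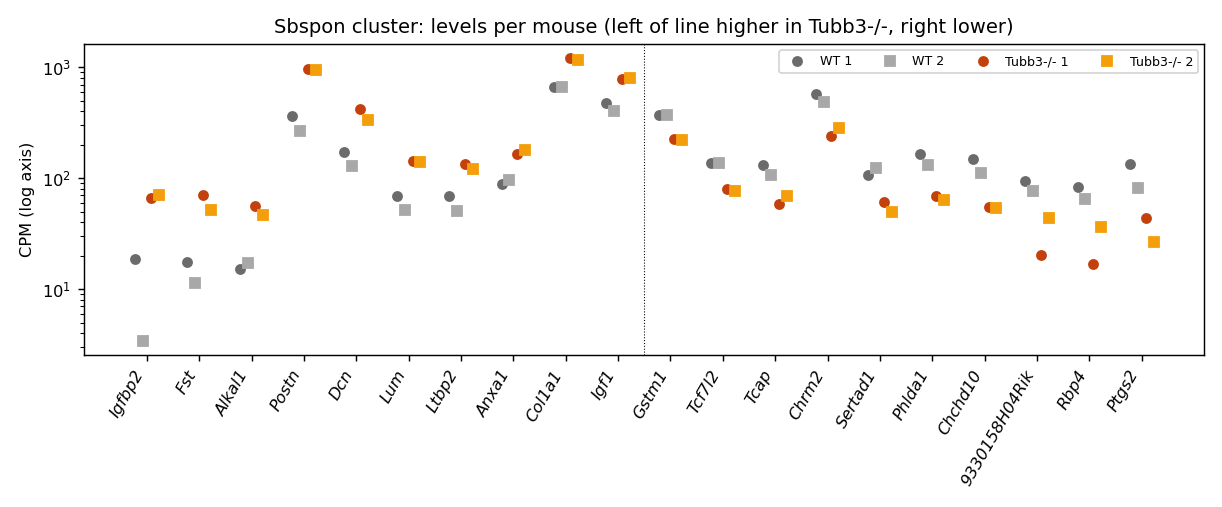
Level (CPM, log axis) per mouse in the Sbspon cluster of called genes averaging 20 CPM or more, those higher in Tubb3-/- mice to the left of the line and those lower to the right. Postn lies at 362 and 267 CPM in WT and 964 and 938 CPM in Tubb3-/- mice, and Chrm2 at 575 and 486 CPM against 240 and 283 CPM.

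Both clusters come from the same mice, and *Postn* was the 1 gene called in both, which is 1.52% of the calls of the Pappa2 cluster and 4.35% of those of the Sbspon cluster. Its genotype difference did not pass a test between the clusters (difference of log2 values -0.21, SE 0.18, edgeR adjusted p = 0.88). A test of the difference between the clusters called 3 of 10603 genes (0.0283%), 2 with the higher difference in the Pappa2 cluster (0.0189%) and 1 in the Sbspon cluster (0.00943%), with 695 (6.55%) at an unadjusted p under 0.05. *Plac8* stood at 116 and 86.4 CPM against 250 and 231 CPM in the Pappa2 cluster and at 200 and 160 CPM against 150 and 147 CPM in the Sbspon cluster (difference 1.53, SE 0.2, adjusted p = 0.0106). *Abra*, an actin-binding activator of muscle gene transcription, stood at 26.9 and 33.2 CPM against 26.3 and 12.8 CPM in the first and at 21.0 and 25.1 CPM against 90.7 and 48.6 CPM in the second (difference -2.19, SE 0.34, adjusted p = 0.0289). The third was *Depdc5*, a repressor of mTORC1, at 2.49 (SE 0.36, adjusted p = 0.0186), where WT replicate 1 stood at 157 CPM in the Sbspon cluster and the other 3 mice at 20.3 to 40.4 CPM. Without that mouse the difference was 1.9 and not called (adjusted p = 0.184). The other genes called in the Pappa2 cluster did not pass this test, for example *Il6* at -1.12 (adjusted p = 0.376), *Irf1* at -0.68 (adjusted p = 0.454) and *Tnfsf9* nearest at -1.73 (adjusted p = 0.0533).

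**Figure D5:**
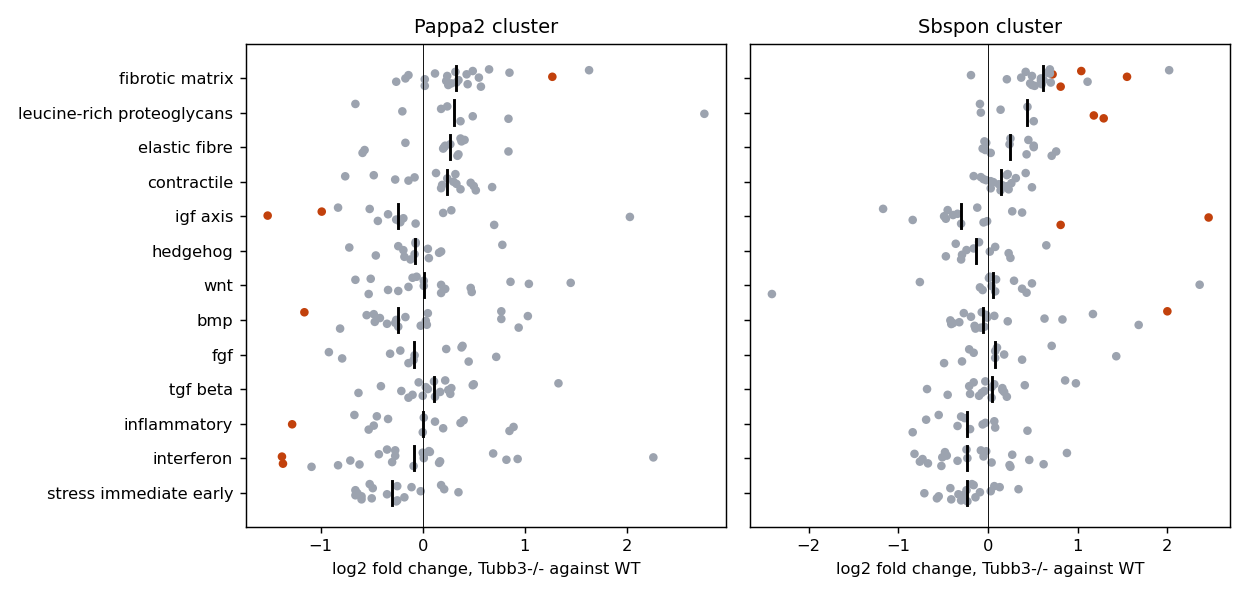
Log2 difference of Tubb3-/- against WT mice for each tested gene of 13 lists, in the Pappa2 cluster (left) and the Sbspon cluster (right); red points passed the test and black bars mark the list's median. The fibrotic matrix list had a median of 0.33 in the Pappa2 cluster and 0.61 in the Sbspon cluster.

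The Adh7 cluster gave no called gene of 10597 tested (0%) by edgeR without the replicate block, with 762 (7.19%) at an unadjusted p under 0.05, 2 calls by DESeq2 and 207 with the replicate block. *Wif1*, the Wnt inhibitor, stood at 65.6 and 53.8 CPM in WT and 130 and 142 CPM in *Tubb3-/-* cells (log2 1.16, adjusted p = 0.297), and *Opcml*, a membrane-anchored adhesion protein, had a log2 difference of -1.94 (adjusted p = 0.297). *Ildr2* (1.31), *Taf4b* (-1.28), *Nop58* (-1.24) and *Pde12* (-1.43) had the same adjusted p. Without *Tubb3-/-* replicate 1, in which 1 cell held 6347 of 6375 haemoglobin UMIs of the cluster, 143 genes were called.

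Whether the genotype difference was particular to these cells was asked against other Col1a2 cells. Populations of 1213 and 851 cells drawn by alveolar and adventitial markers carried *Acta2* at 12215.2 and 9543.2 CPM, a smooth muscle level, and *Inmt*, a gene of alveolar fibroblasts, at 85.8 and 51.7 CPM. They are given as planned: no gene of 14482 (0%) differed in genotype effect from the first and none of 14358 (0%) from the second by edgeR, with 834 (5.76%) and 781 (5.44%) at an unadjusted p under 0.05. Without WT replicate 1 or 2 the first count was 489 or 180 and the second 242 or 22. The 1247 cells that were not chosen in the cluster led by *Slc7a10* and *Scube2*, with *Inmt* at 3294 CPM and *Acta2* at 301.3 CPM, made a closer comparison for the Pappa2 cluster. No gene of 12190 (0%) passed by edgeR, with 900 (7.38%) at an unadjusted p under 0.05 and 2 to 33 calls when single mice were left out. *Bpgm* came near (difference 1.86, SE 0.28, adjusted p = 0.0722), as did *Postn* less closely (difference 1.56, SE 0.33, adjusted p = 0.139, called in 4 of 6 alternatives), which stood at 16.8 and 24.1 CPM in WT and 15.3 and 21.5 CPM in *Tubb3-/-* mice in those cells. *Tnfsf9* had a difference of -1.64 (adjusted p = 0.383) and *Dcn* one of 1.23 (adjusted p = 0.471, called in 3 of 6), and *Il6* and *Irf1* differed by -0.29 and -0.06 (adjusted p = 0.83 and 0.983). In the Scube2 cells *Irf1* stood at 205 and 159 CPM in WT and 96.1 and 60.2 CPM in *Tubb3-/-* mice, and *Icam1* at 229 and 176 CPM against 107 and 113 CPM.

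The chosen cells of the 2 kinds of library were not alike. Compared within mice, 799 of 14104 genes (5.67%) passed, 437 with the higher level (3.1%) and 362 with the lower (2.57%) in the mural cell-enriched libraries. Some genes of macrophages and club cells were lower there: *Chil3*, a macrophage gene, at a mean of 0.846 CPM against 91.2 CPM in whole-cell libraries (log2 -6.72), *Scgb1a1* of club cells at 73.0 against 576 CPM (log2 -3.12) and *Lyz2* at 57.6 against 311 CPM (log2 -2.45), each without overlap of the 4 mice. Of the lists, 7 of 10 leukocyte markers tested were called lower (median -2.24), but 3 of 9 epithelial markers (median -0.14). Higher were 16 of 18 contractile genes (median 0.99), *Ctnna3* at 128 against 15.5 CPM, and *Msln* of mesothelium at 87.8 against 19.3 CPM, whereas 10 of 11 adventitial markers were lower (median -0.63). Some lists of other cell types were higher there, with 4 of 5 erythrocyte genes (median 4.11), 4 of 6 mesothelial markers (median 1.96) and 5 of 10 pericyte markers (median 1.52) called. In the Pappa2 cluster alone 23 of 6977 genes (0.33%) passed, 6 of them higher there (0.086%) and 17 lower (0.244%), and 5.53% had an unadjusted p under 0.05. The counts of all chosen cells and of this cluster rest on unequal depth and were not compared.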

How the data were processed

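Single-cell RNA-seq of 8 libraries from 4 mice was used (10x 3' chemistry with sample tags, 2 pools). The authors aligned reads to mm10 with Cell Ranger 7.1.0 and split the pools by tag, and the deposited values are UMI counts per gene and cell, with no normalization. The tag libraries were not used here. The chosen cells and the gene lists were set with earlier results of these data known, and the cluster comparisons were added after the data were seen.

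Col1a2 cells were clustered on 2000 variable genes, the 6 rule genes left out, with 30 principal components, 15 neighbors and Leiden (leidenalg 0.10.2, resolution 1.0). Doublets were scored by a Scrublet-type method (138 of 14160 cells, 0.97%, marked in the whole-cell pool and 684 of 16700, 4.1%, in the mural cell-enriched pool) and kept in the main analysis. Counts were summed per mouse over both libraries and tested by edgeR 4.0.16 (quasi-likelihood, filterByExpr, TMM) in R 4.3.3, with Benjamini-Hochberg adjustment over all genes and a threshold of 0.05. Rule genes were left out of the counts of calls. CPM are counts per 1e+06 UMIs of the sum, and fold changes are log2. DESeq2 1.42.0 was an alternative. On simulated counts with 200 changed genes, 75%, 53% and 55% of those set to a log2 change of 1 were recovered in all chosen cells (15249 genes), the Pappa2 cluster (10530 genes) and the Sbspon cluster (9525 genes), and 96%, 91% and 92% of those set to 2, with 13, 9 and 5 false calls. The simulated spread depended on the level of a gene alone, and no difference by sex was put in. These shares therefore need not hold for the real counts.

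Named genes were those of the lists, up to 10 calls in each direction, the largest by log2 difference among genes averaging 20 CPM or more, or the 6 with the smallest p where fewer than 3 were called, and the 20 genes with the highest ratio over other Col1a2 cells at a level of at least 50 CPM. *Irf8*, *Chrm3*, *Icam1*, *Nfkb1*, *Tnfaip3*, *Ripk1*, *Jak1*, *Osmr*, *Bdkrb2*, *Col4a1* and *Abra* were named after their values were seen. Cell Ranger by default counts reads in the sense direction, but the setting used is not given in the sources used here, which bears on overlapping genes such as *Aspn* with *Cenpp*, *Cxcl10* with *Art3*, *Igf1* with *Igf1os*, *Col4a1* with *Col4a2* and *Ripk1* with *Serpinb6a*. No source ties the replicate numbers of the genotypes to shared litters or days.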

Additional observations from a re-analysis of the deposited data

Results flagged for a closer look

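The genotype difference of 3 genes differed between the Pappa2 and Sbspon clusters by a test of the difference itself (interaction of genotype and cluster with the mouse as a term, edgeR). The difference of log2 values was 2.49 for *Depdc5*, called in 5 of 6 alternatives, 1.53 for *Plac8*, called in 6 of 6, and -2.19 for *Abra*, called in 6 of 6. For *Plac8* the *Tubb3-/-* mice lay above the WT mice in the Pappa2 cluster and below them in the Sbspon cluster, whereas the difference of *Depdc5* was 1.9 and not called (adjusted p = 0.184) without WT replicate 1, which stood at 157 CPM in the Sbspon cluster.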

How the results depend on the processing

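Counts of called genes depended on the setting. Of 1174 recomputed values of single named genes, 859 kept their side of the threshold, 248 lost and 67 gained a call, and 0 reversed. Some differences of genotype effect that were not called did change sign. Examples are *Postn* between the Pappa2 and Sbspon clusters (-0.37 to 0.03) and *Irf1* against the Scube2 cluster (-0.28 to 0.17). Over all chosen cells (2 calls) the count was 10 in whole-cell libraries alone, 17 with no condition on *Cthrc1*, 106 where at least 2 of *Aspn*, *Pappa2* and *Sbspon* were counted, 414 by DESeq2, 1 with RLE factors, and 0 with *Hhip* at 2 UMIs or more, with a mitochondrial limit of 10%, with *Myh11* at 2 UMIs or fewer, or with no filter on low counts. In the Pappa2 cluster (66) it was 23 in mural cell-enriched libraries alone, 21 without cells marked as doublets, 104 with all cells of the cluster and 339 with no filter. In the Sbspon cluster (23) it was 13 without marked doublets and 14 with all cells. The Adh7 cluster (0) gave 2 by DESeq2 and 267 with no filter, and cells outside the 3 clusters (2) gave 259 by DESeq2. With no filter the difference in genotype effect gave 213 calls against the alveolar and 225 against the adventitial population (both 0), 59 between the Pappa2 and Sbspon clusters (3) and 87 against the Scube2 cluster (0), and the library comparison 1329 (799). The cause was not tested.

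Leaving out 1 mouse at a time gave 0 to 269 calls over all chosen cells, 73 to 474 in the Pappa2 cluster, 60 to 244 in the Sbspon cluster, 0 to 143 in the Adh7 cluster and 0 to 434 outside the 3 clusters. Against the alveolar and adventitial populations the range was 0 to 489 and 0 to 242, between the Pappa2 and Sbspon clusters 9 to 87, against the Scube2 cluster 2 to 33, and in the library comparison 474 to 641, or 20 to 41 in the Pappa2 cluster alone. The log2 difference in the share of the Pappa2 cluster ranged from 0.69 to 1.81.

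Replicate numbers are no pairing by the labels. Deviations of same-numbered mice correlated at 0.213 over all chosen cells, 0.133 in the Pappa2 cluster and 0.078 in the Sbspon cluster, and with the replicate number as a block the counts were 1389, 542 and 30, 207 in the Adh7 cluster and 829 outside the 3 clusters. Without the block on the mouse the library comparison gave 317 calls. Depth limits the WT side of the Pappa2 cluster most, where replicate 2 gave 35 cells.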
